A study of Mus musculus with 30 samples.

Results

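The genes described here are 40 type I interferon-stimulated genes, listed by name by a rule that sets no cut on a measured value. These 40 genes were chosen with earlier results of these data known. They were found by symbol in the RNA sequencing tables of a mouse brown preadipocyte line, with the RefSeq accession that had the most reads over the libraries standing for each gene. All 40 were present, of 23109 genes or unmatched accessions in the tables, and all 40 were among the 12581 genes whose RPKM (reads scaled to transcript length and library size) reached 1 in 2 or more libraries and so entered the statistical model. The cells were brown preadipocytes from newborn C57BL/6J mice with loxP sites in both alleles of Nr3c1, the gene of the glucocorticoid receptor (GRf/f), and SV40T immortalised them. A retrovirus then gave either control cells (Vec, receptor gene intact) or cells with the receptor gene deleted by Cre recombinase (Cre). Both lines share the floxed alleles, SV40T and a retroviral infection, and whether either line is a pool or 1 clone was not given in the sources used here. No Cre line without floxed alleles was among the samples. Loss of the receptor, Cre itself and other differences between the lines therefore cannot be told apart. Confluent cells were induced for 4 hours with 2 µg/ml dexamethasone, a ligand of the receptor, 0.5 mM IBMX, which raises cAMP, insulin (0.02 µM), the thyroid hormone T3 (1 nM) and indomethacin (0.125 mM). Each of the 2 genotypes gave 1 RNA library before induction (D0), 1 at 4 hours (4h), 1 on day 2 (D2) and 1 on day 7 (D7), so every value below has n = 1. Later media were not given in the sources used here, and no uninduced culture of a later time was analysed here, so effects of the mix, of those media and of elapsed time cannot be told apart.

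Type I interferons are secreted alarm signals that bind the IFNAR1 and IFNAR2 receptor chains, activate the kinases JAK1 and TYK2 and lead to a complex of transcription factors that holds STAT2 and IRF9. This complex enters the nucleus and binds the interferon-stimulated response element (ISRE) in front of many genes, whose products sense, bind or degrade viral RNA, tag proteins with the ubiquitin-like ISG15 or present antigen. Many of these genes are also expressed at a low tonic level without infection. In brown and beige fat cells the transcription factor PRDM16 is known to hold them down, and type I interferon is known to lower thermogenic and mitochondrial genes.

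The sequences in front of 6 of the genes are shown because they carry the element through which interferon acts, and the one in front of Irf1 because it carries the other element of the pathway. Each is the 160 bases before the annotated start of transcription in mouse RefSeq, build GRCm38.p6, read 5′ to 3′ on the gene's strand, and capitals mark the motif that a search found. For the first 6 this is the ISRE core GAAANNGAAA on either strand, so that a capital run rich in T is a match on the opposite strand, and overlapping matches run together. For Irf1 it is the gamma-activated site TTCNNNGAA, which STAT dimers bind and which reads the same on both strands.
Isg15 (chr4:156200819-156200978, minus strand): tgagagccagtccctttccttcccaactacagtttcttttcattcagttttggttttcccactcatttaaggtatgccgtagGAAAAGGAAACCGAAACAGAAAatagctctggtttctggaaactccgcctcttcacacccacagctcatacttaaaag
Ifit1 (chr19:34640729-34640888, plus strand): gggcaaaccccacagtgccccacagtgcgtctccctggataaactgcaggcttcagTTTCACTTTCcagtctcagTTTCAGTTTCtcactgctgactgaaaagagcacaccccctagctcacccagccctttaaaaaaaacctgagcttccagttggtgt
Ifit3 (chr19:34583369-34583528, plus strand): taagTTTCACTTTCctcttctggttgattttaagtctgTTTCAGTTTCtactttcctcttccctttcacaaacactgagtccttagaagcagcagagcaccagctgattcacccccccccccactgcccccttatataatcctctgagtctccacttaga
Rsad2 (chr12:26456453-26456612, minus strand): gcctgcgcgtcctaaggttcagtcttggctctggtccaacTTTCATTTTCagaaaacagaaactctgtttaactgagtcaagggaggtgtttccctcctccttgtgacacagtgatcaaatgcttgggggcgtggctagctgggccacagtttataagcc
Bst2 (chr8:71537473-71537632, minus strand): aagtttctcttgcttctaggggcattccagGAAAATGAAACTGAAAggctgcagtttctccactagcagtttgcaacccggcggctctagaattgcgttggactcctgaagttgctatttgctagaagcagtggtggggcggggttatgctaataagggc
Gbp3 (chr3:142559884-142560043, plus strand): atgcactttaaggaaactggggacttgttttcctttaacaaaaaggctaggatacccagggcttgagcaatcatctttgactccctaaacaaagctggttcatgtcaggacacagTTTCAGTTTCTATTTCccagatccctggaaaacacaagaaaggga
Irf1 (chr11:53769854-53770013, plus strand): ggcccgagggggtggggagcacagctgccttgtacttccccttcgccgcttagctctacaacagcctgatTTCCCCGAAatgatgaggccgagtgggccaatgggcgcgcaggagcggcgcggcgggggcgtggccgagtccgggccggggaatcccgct
Isg15 has 3 overlapping cores, Ifit1, Ifit3, Bst2 and Gbp3 have 2 each, and Rsad2 has 1. The first core of Bst2 also overlaps a gamma-activated site by 3 bases. Promoter sequences were found for 30 of the 40 genes, each running from 250 bases before the start to 50 after it. Of these 30, 12 (40%) held the ISRE core, against 3.99% of the 27025 genes of the promoter table and 3.58% of the 9559 genes of the model found in it. The other 6 with a core were Stat2, Oas1a, Ifih1, Ddx58, Gbp2 and Eif2ak2. The gamma-activated site was in 8 of the 30 (26.7%), against 9.55% of all genes of the table. A strict form of the glucocorticoid response element, to which the receptor binds, is AGAACANNNTGTTC. It was in 0 of the 30 and in 0.0518% of all genes of the table. At so low a share a count of 0 of 30 says nothing about these genes, and looser forms were not searched. A match describes letters in this window only, and a window without one says nothing about binding elsewhere.

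Sequencing depth ran from 7.7 M reads (Cre 4h) to 28.9 M (Vec D2), and the smallest read count behind a member was 2, for Mx1 in Vec D2. Nr3c1 was lower in Cre at each time (D0, 4h, D2 and D7: 4.81, 4.04, 8.07 and 6.67 RPKM, against 24.3, 12.9, 21.3 and 32.1 in Vec), and which exons the reads left in Cre cover was not looked at. Adipocyte markers (6 genes) summed to 28.2 RPKM in Vec D0 and 28.4 in Cre D0, 41.2 and 34.8 at 4h, 1581 and 1464 at D2, and 4021 and 1419 at D7. At 4h this sum was that of Pparg, Cebpa and Fabp4 alone. Adipoq, Plin1 and Cidec had 0 reads in both 4h libraries, after 77, 15 and 21 reads in Vec D0 and 59, 28 and 20 in Cre D0. What this loss means for the comparison of 4h with D0 was not tested. Brown markers (6 genes) stayed at a sum of 0.271 to 5.22 RPKM up to D2 and reached 118 in Vec and 63.1 in Cre at D7, with Ucp1 at no more than 0.882 RPKM, so the defining brown gene was near 0 throughout. Of 9 macrophage and other leukocyte markers found, the sum was 0.584 to 3.10 RPKM per library. Ptprc, Adgre1, Itgam, Cd3e and Siglech had at most 0.0904 RPKM in any library. Cd14 was the largest single part of the sum in each library (0.440 to 2.29 RPKM, with 19 reads in Vec D2 and 20 in Cre D2). Lyz2 reached 0.737 RPKM in Cre 4h and 1.23 in Cre D7, and Csf1r lay at 0.0894 to 0.313 RPKM. The leukocyte sum was lowest at D2 (0.584 in Vec and 0.814 in Cre), as was that of 4 endothelial markers in Vec (0.296, of 0.296 to 3.12), and so were the sums of 4 skeletal muscle markers (3.01 in Vec and 5.38 in Cre, of 3.01 to 22.1) and of the 8 preadipocyte and stromal markers (623 and 1339, of 623 to 2974). Not every marker followed its sum. In Vec, Dlk1, Ebf2 and Cd34 rose from D0 to D2 (53.2 to 69.3, 8.23 to 19.2 and 28.0 to 33.0 RPKM). The other stromal markers fell, with Col1a1 (1449 to 244 RPKM) and Col1a2 (955 to 196 RPKM) carrying the sum. Acta1 (13.5 to 1.72 RPKM in Vec) carried the muscle sum, and Myog (0.891 to 0.936 RPKM) did not fall. These sums, though not each marker, were low where the genes described below were lowest, and their part in that low point was not tested. In bulk RNA, fewer cells of a kind and less RNA per cell cannot be told apart.

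Over the 40 genes the median level was near 20 RPKM in undifferentiated cells, by far the lowest on day 2 and back at or above its first level on day 7, in both genotypes. Their median was 20.0 RPKM in Vec D0, 18.8 in Vec 4h, 2.55 in Vec D2 and 30.5 in Vec D7. In Cre it was 22.5, 27.4, 6.41 and 25.7 RPKM at the same times. The median of all genes tested stayed between 7.92 and 9.10 RPKM, so the set lay above the typical gene at D0, 4h and D7 and below it at D2. Vec D2 was the lowest of the 8 libraries for 37 of the 40 genes. Irf1 and Ifi27 were lowest in Vec 4h and Isg20 in Cre D2. Both D2 libraries lay below all 6 others for 36 genes, as they did for 11.4% of all genes tested. The highest library was Cre 4h for 18 genes, Vec D7 for 14, Cre D7 for 5 and Cre D0 for 3. At the top stood Bst2, whose highest value was 650 RPKM, and Lgals3bp, at up to 373 RPKM, and at the bottom Mx1, at 0.0257 to 5.42 RPKM.

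**Figure D1:**
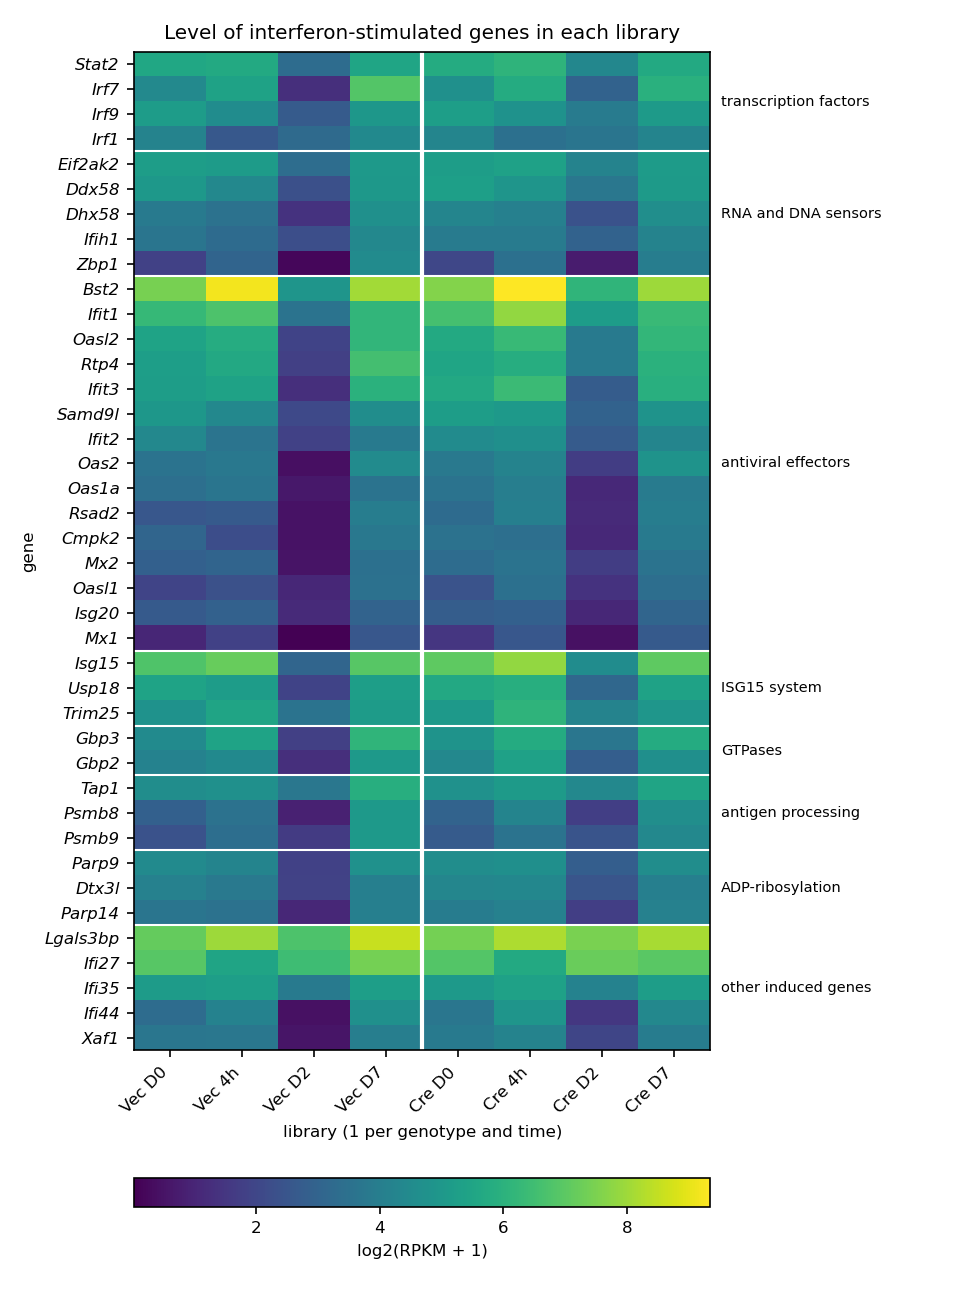
Level of each of the 40 genes as log2(RPKM + 1), by colour, in the 4 Vec libraries (left block) and the 4 Cre libraries (right block), with genes grouped by role and ordered within a role by mean RPKM. The D2 column is the darkest of each block for most genes, and darker in Vec (median 2.55 RPKM) than in Cre (6.41 RPKM).

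In the additive model of time and genotype, fitted with edgeR's quasi-likelihood test on the read counts of all 8 libraries, 35 of the 40 genes were lower at D2 than at D0 and 0 were higher, where 21.0% of all genes tested were lower and 17.7% higher. At an unadjusted p under 0.05 the higher count was still 0, by limma and DESeq2 as well at the adjusted threshold. The median fitted change over the 40 was -2.46 on the log2 scale (range -3.75 to -0.05), and 0.02 over all genes. From D2 to D7, 39 of 40 rose and 0 fell, where 15.4% of all genes rose and 8.93% fell, with a median of 3.13. Against D0, D7 was higher for 4 genes and lower for 0 (5.68% and 2.42% of all genes), with a median of 0.59. The comparisons share the D0 and D2 libraries and are not independent of each other. The model's error is the departure of the 2 genotypes from parallel courses over these times, so its p-values do not measure the spread between independent cultures. The D2 count rested in part on the D0 libraries: it was 15 without Vec D0 and 24 without Cre D0, and 28 to 37 without any other single library.

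Among the transcription factors of the response, all 4 fell at D2 and rose again by D7. Values per gene are given below in the order D0, 4h, D2, D7. Stat2, a subunit of the interferon-activated complex, lay at 46.8, 50.3, 9.09 and 44.2 RPKM in Vec and 53.8, 66.7, 19.4 and 50.5 in Cre. It fell by 1.91 ± 0.27 (SE) at D2 on the log2 scale (adjusted p = 0.00532) and differed from D0 by 0.02 ± 0.25 at D7. Irf9, the DNA-binding subunit of that complex, stood at 35.2, 22.6, 5.46 and 30.2 RPKM in Vec and 37.0, 26.3, 14 and 33.4 in Cre, and had already a lower value at 4h than at D0 in both genotypes. Irf7, the factor that amplifies interferon production, went through the widest course, at 20.3, 41.3, 1.45 and 116 RPKM in Vec and 25.5, 52.7, 6.71 and 60.7 in Cre. Its D2 level was 7.15% of D0 in Vec and 26.4% in Cre, and its D7 level 572% of D0 in Vec and 238% in Cre. The fitted fall of Irf7 at D2 was 2.59 ± 0.69 (adjusted p = 0.0318) and its D7 level was 2.13 ± 0.66 above D0 (adjusted p = 0.0973). Irf1, which interferon gamma induces through a gamma-activated site such as the one printed above, behaved differently, at 17.2, 5.0, 8.54 and 20.9 RPKM in Vec and 18.3, 10.1, 11.7 and 17.9 in Cre. Its lowest point in both genotypes was 4h (fitted change -1.19 ± 0.28, adjusted p = 0.03), and its D2 change of -0.85 ± 0.27 was the weakest of those past the threshold (adjusted p = 0.0485), lost with limma on log2(RPKM + 1) (0.0567), with the deposited library totals (0.0511) and with summed accessions (0.0533).

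All 5 sensors of foreign nucleic acid fell at D2. Ddx58 (RIG-I) and Ifih1 (MDA5), helicases that detect viral double-stranded RNA, lay at 31.4, 19.9, 3.9 and 30.9 RPKM in Vec and 38.4, 28.9, 12.3 and 33.8 in Cre and at 11.7, 8.72, 3.84 and 20.0 RPKM in Vec and 14.1, 14.1, 6.89 and 17.4 in Cre respectively. Dhx58 (LGP2), the helicase that regulates both, stood at 13.4, 10.6, 1.61 and 25 RPKM in Vec and 18.3, 16.1, 4.25 and 23.7 in Cre. The fitted falls at D2 were 2.26 ± 0.40 for Ddx58, 1.32 ± 0.27 for Ifih1 and 2.53 ± 0.35 for Dhx58. Eif2ak2 (PKR), a kinase that stops translation when it binds double-stranded RNA, lay at 36.7, 34.4, 9.19 and 32.8 RPKM in Vec and 36.4, 40.2, 17.5 and 34.6 in Cre. Zbp1, a sensor of Z-form nucleic acid that starts necroptosis, had low values before day 7, at 2.59, 7.14, 0.157 and 21.9 RPKM in Vec and 3.03, 10.1, 0.664 and 14.7 in Cre. In Vec D2 only 9 reads stood behind its value and in Cre D2 35. Zbp1 rose at 4h (1.69 ± 0.47, adjusted p = 0.0476), fell at D2 (-2.83 ± 0.56, adjusted p = 0.0134) and reached the greatest rise of the set from D2 to D7 (5.66 ± 0.57, adjusted p = 0.00506). At D7 it stood 2.83 ± 0.47 above D0 (adjusted p = 0.0289), whereas Ddx58 and Eif2ak2 were within 0.02 of their D0 level with SEs of 0.37 and 0.25.

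The 15 antiviral effectors all fell at D2 and all rose from D2 to D7. Bst2 (tetherin), a membrane protein that holds budding virus at the cell surface, lay at 173, 583, 28.4 and 266 RPKM in Vec and 194, 650, 69.6 and 249 in Cre. Its 4h values were above those of all other times in both genotypes, and it rose at 4h by 1.85 ± 0.36 (adjusted p = 0.0199) before it fell at D2 by 1.99 ± 0.36 (adjusted p = 0.011). The IFIT proteins bind viral RNA ends. Ifit1 lay at 77.2, 107, 11.1 and 71.5 RPKM in Vec and 96.7, 227, 35.3 and 80.0 in Cre, Ifit2 at 19.6, 11.4, 2.61 and 13.4 RPKM in Vec and 21.9, 24.5, 5.59 and 18.3 in Cre, and Ifit3 at 36.7, 41.4, 1.44 and 62.4 RPKM in Vec and 49.1, 83.4, 5.76 and 59.0 in Cre. Ifit3 had the deepest fitted fall at D2 of the 40 genes (-3.75 ± 0.51, adjusted p = 0.005), with 83 reads left in Vec D2 of 1723 at D0, and all 3 had their highest value in Cre 4h. The 3 IFIT genes are close copies, so reads may be split between them.

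The oligoadenylate synthetases make the second messenger that switches on RNase L, and the OAS-like proteins act beside them. Oas1a lay at 9.92, 11.7, 0.551 and 11.1 RPKM in Vec and 11.1, 15.1, 1.14 and 13.9 in Cre, and Oas2 at 11.0, 12.7, 0.332 and 21.8 RPKM in Vec and 13.0, 17.3, 2.32 and 27.4 in Cre. In Vec, Oas2 dropped to 3.01% of its D0 level at D2, against 17.8% in Cre. Oasl2 lay at 42.3, 54.3, 2.71 and 71.3 RPKM in Vec and 50.2, 77.5, 13.2 and 72.8 in Cre, with the same separation of Vec D2 from Cre D2, and Oasl1 at 2.89, 4.03, 1.08 and 10.3 RPKM in Vec and 4.38, 10.0, 1.63 and 9.53 in Cre. Oasl1 kept 37.3% of its D0 level at D2 in each genotype, and was the only one of these 4 whose D7 level passed the threshold against D0 (1.61 ± 0.31, adjusted p = 0.0397). Oasl1 and Oasl2 neighbour each other on chromosome 5.

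Rsad2 (viperin) makes a chain-terminating nucleotide from the product of its neighbour Cmpk2, a mitochondrial nucleotide kinase, and both genes lie side by side on chromosome 12. Rsad2 lay at 4.91, 5.32, 0.394 and 14.9 RPKM in Vec and 8.74, 15.5, 1.22 and 15.0 in Cre, and Cmpk2 at 7.49, 3.71, 0.413 and 12.5 RPKM in Vec and 10.7, 9.77, 1.18 and 13.4 in Cre. They shared a deep fall at D2 (-3.18 ± 0.43 and -3.62 ± 0.39) and the highest values in the Cre 4h or D7 libraries. Mx1 and Mx2 are dynamin-like GTPases that trap viral nucleocapsids, and the C57BL/6 strain is known to carry a defective Mx1 allele. The RefSeq transcripts that stand for Mx1 and for Mx2 here are both of the non-coding class. Mx1 lay at 1.03, 2.57, 0.0257 and 4.98 RPKM in Vec and 1.83, 4.96, 0.363 and 5.42 in Cre, and Mx2 at 6.47, 7.21, 0.443 and 10.0 RPKM in Vec and 9.08, 11.0, 2.35 and 11.0 in Cre. With 2 reads in Vec D2, Mx1 was under the 3 reads taken as the detection floor there, so its fitted changes of -3.00 ± 0.65 to D2 and 5.05 ± 0.65 from D2 to D7 depend on few reads. Samd9l, a restriction factor of poxviruses, lay at 30.6, 19.6, 3.28 and 23.5 RPKM in Vec and 36.3, 31.8, 6.88 and 27.1 in Cre, and Rtp4, a zinc-finger protein that binds viral replicase, at 37.3, 49.3, 2.51 and 92.6 RPKM in Vec and 44.4, 56.0, 13.3 and 61.7 in Cre. Rtp4 reached its highest value in Vec D7, and Samd9l in Cre D0. Isg20, an RNA exonuclease, lay at 5.38, 6.55, 1.22 and 6.94 RPKM in Vec and 5.94, 6.47, 1.08 and 7.44 in Cre, with nearly the same values in Vec and Cre at each time.

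Isg15, the ubiquitin-like modifier, lay at 109, 143, 7.47 and 120 RPKM in Vec and 130, 225, 22.4 and 132 in Cre. Usp18, the protease that removes it and that blocks signalling at the receptor, lay at 41.8, 35.2, 2.76 and 37.2 RPKM in Vec and 49.1, 57.2, 7.77 and 41.6 in Cre. In Vec both fell to under 7% of their D0 level at D2 (6.83% and 6.60%), and in Cre to 17.3% and 15.8%. The fitted falls were 3.14 ± 0.38 (adjusted p = 0.00418) and 3.24 ± 0.36 (adjusted p = 0.00347). Trim25, the ligase that activates RIG-I, moved less, at 26.6, 43.3, 10.9 and 34.8 RPKM in Vec and 31.8, 66.7, 17.5 and 29.7 in Cre. It rose at 4h by 0.98 ± 0.24 (adjusted p = 0.0345) and fell at D2 by 1.09 ± 0.24 (adjusted p = 0.019).

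The guanylate-binding proteins, GTPases that attack membranes around pathogens, and the antigen-processing genes ended higher than they began in every case by value. Gbp2 lay at 17.0, 21.2, 1.43 and 31.9 RPKM in Vec and 20.1, 40.1, 6.11 and 24.3 in Cre, and Gbp3 at 21.3, 42.8, 2.49 and 69.2 RPKM in Vec and 26.9, 53.9, 11.9 and 53.3 in Cre. Gbp2 fell at D2 (-2.48 ± 0.57, adjusted p = 0.0215), whereas the D2 change of Gbp3, -1.91 ± 0.61, did not pass the threshold (adjusted p = 0.0523). Psmb8 and Psmb9 are catalytic subunits of the immunoproteasome, and Tap1 is part of the peptide transporter that loads MHC class I; the 3 genes adjoin each other on chromosome 17. Psmb8 lay at 6.4, 10.7, 0.850 and 32.5 RPKM in Vec and 7.06, 18.0, 2.37 and 23.6 in Cre, Psmb9 at 4.17, 9.61, 2.15 and 32.0 RPKM in Vec and 5.61, 11.1, 4.49 and 19.7 in Cre, and Tap1 at 23, 25.1, 12.1 and 56.9 RPKM in Vec and 25.7, 33.7, 19.9 and 43.3 in Cre. Psmb8 fell at D2 (-2.13 ± 0.46, adjusted p = 0.0172), and Psmb9 and Tap1 had D2 changes of -0.60 ± 0.43 and -0.65 ± 0.27 that did not pass (adjusted p = 0.311 and 0.107). At D7 Psmb8 stood 2.20 ± 0.42 and Psmb9 2.53 ± 0.43 above D0 (adjusted p = 0.0382 and 0.0297), so these neighbours were 2 of the 4 genes past the threshold in that comparison, and Tap1 was at 1.17 ± 0.27 (adjusted p = 0.056).

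Parp9 and Parp14 are ADP-ribosyltransferases and Dtx3l is the ubiquitin ligase that works with PARP9. Parp9 lay at 21.3, 17.9, 2.59 and 26 RPKM in Vec and 23, 24.8, 5.99 and 23.2 in Cre, Dtx3l at 16.6, 13.0, 2.68 and 15.8 RPKM in Vec and 18.8, 19.3, 4.58 and 15.6 in Cre, and Parp14 at 11.6, 10.7, 1.12 and 15.6 RPKM in Vec and 14.3, 16.5, 2.39 and 16.5 in Cre. All 3 fell at D2, by 2.45 ± 0.34, 2.34 ± 0.22 and 2.96 ± 0.27, and at D7 were within 0.43 of D0 on the log2 scale. The 3 genes are neighbours on chromosome 16, and Parp9 and Dtx3l overlap, so reads of these 2 cannot be told apart where the strand was not counted. Of the remaining genes Ifi35, which binds NMI, lay at 34.4, 37.5, 13.8 and 37.0 RPKM in Vec and 32.7, 40.5, 17.0 and 36.3 in Cre, and Ifi44, a cytoplasmic protein linked to antiviral defence, at 9.10, 16.8, 0.369 and 25.4 RPKM in Vec and 11.9, 28.6, 1.92 and 19.8 in Cre. Xaf1, which promotes apoptosis, lay at 11.9, 12.4, 0.467 and 15.1 RPKM in Vec and 13.5, 17.3, 2.96 and 14.3 in Cre. Ifi44 and Xaf1 fell by 3.34 ± 0.60 and 3.08 ± 0.64 at D2, and in Vec to 4.06% and 3.93% of D0, against 16.1% and 22.0% in Cre. Ifi35 kept 40% in Vec and 52.0% in Cre.

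Lgals3bp and Ifi27 departed from the rest. Lgals3bp, a secreted galectin-binding glycoprotein, lay at 142, 254, 106 and 373 RPKM in Vec and 167, 290, 175 and 276 in Cre, and Ifi27, a small mitochondrial membrane protein, at 120, 43.8, 86.5 and 168 RPKM in Vec and 116, 50.2, 147 and 124 in Cre. Their fitted D2 changes of -0.17 ± 0.28 and -0.05 ± 0.29 did not pass (adjusted p = 0.652 and 0.91). Both had a lower D2 than D0 value in Vec (74.4% and 72.3% of D0) and a higher one in Cre (105% and 127%). Ifi27 instead fell at 4h by 1.23 ± 0.29 (adjusted p = 0.0323), and was the 1 gene of the 40 without a rise past the threshold from D2 to D7 (0.46 ± 0.29, adjusted p = 0.286).

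**Figure D2:**
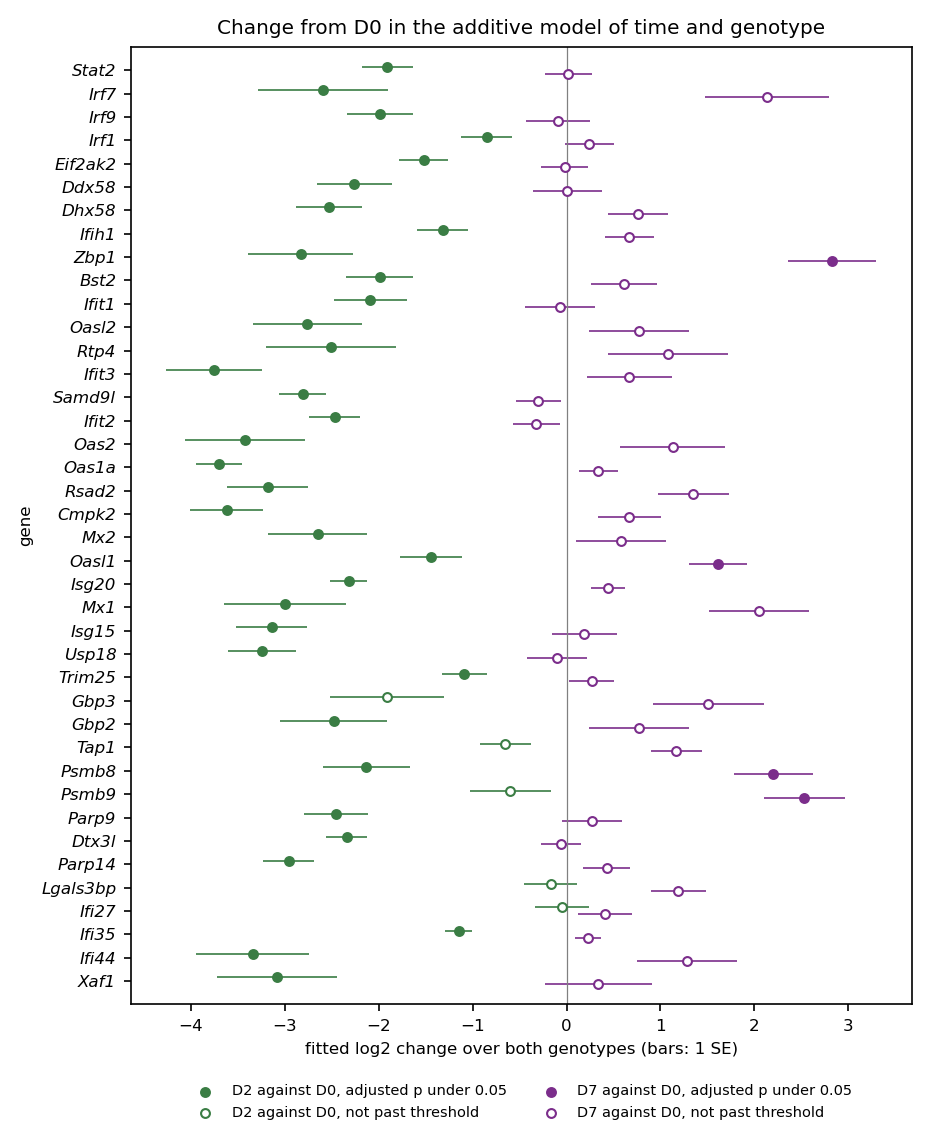
Fitted log2 change of each gene at D2 (green) and at D7 (purple) against D0 over both genotypes, with bars of 1 SE from the additive model and filled points where the adjusted p was under 0.05. Green points lie left of 0 for all 40 genes and are filled for 35, while purple points spread around and right of 0 and are filled for Zbp1, Oasl1, Psmb8 and Psmb9.

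The comparison of 4h with D0 covers the first hours after the mix was added. Of the 40 genes 3 rose (Bst2, Trim25 and Zbp1) and 2 fell (Irf1 and Ifi27), where 12.2% of all genes rose and 13.1% fell, so neither share lay above that of all genes. The fitted change was above 0 for 30 of the 40, with a median of 0.38 (range -1.23 to 1.85). It was above 0 for 6275 of all 12581 genes tested. At an unadjusted p under 0.05, 9 of the 40 were higher and 2 lower, against 2570 and 2669 of the 12581. In Vec the median ratio of 4h to D0 was 1.12, with 26 genes above 1 and 14 below, and in Cre it was 1.30, with 32 above and 7 below. Over all genes tested the median ratio was 0.891 in Vec and 0.972 in Cre. Psmb9 and Psmb8 had fitted 4h changes of 1.18 ± 0.43 and 1.15 ± 0.42, and Mx1 one of 1.48 ± 0.54, none past the threshold (adjusted p = 0.0943, 0.0948 and 0.0933). The count of genes that rose was 5 with limma on log2(RPKM + 5) and 7 with DESeq2. It was 0 without Vec D0, Cre D0 or Vec 4h, 1 without Cre 4h, 10 without Vec D2 or Cre D2, and 6 without Vec D7 or Cre D7. The count that fell was 0 without Vec D0, Cre D0 or Vec 4h and 1 without Cre 4h.

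By day 7 most of the 40 genes lay at or above their D0 level by value. The median gene stood at 154% of its D0 value in Vec and at 122% in Cre, with 31 genes above D0 in Vec and 29 in Cre. The range was wide, from 68.5% (Ifit2) to 844% (Zbp1) in Vec and from 74.6% (Samd9l) to 486% (Zbp1) in Cre. Ifit1, Ifit2, Usp18, Irf9, Stat2, Ddx58, Dtx3l, Samd9l and Eif2ak2 were under 100% in both genotypes, and Zbp1, Psmb9, Irf7, Psmb8, Mx1, Oasl1, Gbp3 and Rsad2 were above 300% in Vec. The count of 4 genes past the threshold was 10 with DESeq2, 0 without Vec D0, Cre D0 or Vec D7, and 1 without Vec 4h or Cre 4h. It was 9 without Vec D2, 8 without Cre D2 and 9 without Cre D7.

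**Figure D3:**
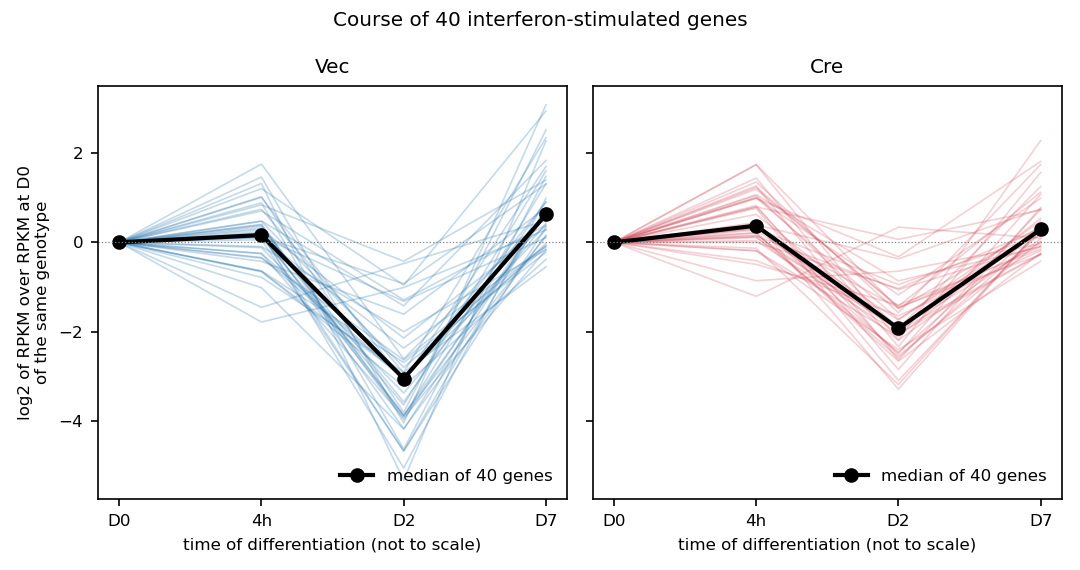
Course of each of the 40 genes (thin lines) and their median (black) as the log2 ratio of RPKM to the D0 value of the same genotype, for Vec (left) and Cre (right), with 1 library per point. The median gene is at 12.1% of D0 on day 2 in Vec and at 26.3% in Cre, and at 154% and 122% on day 7.

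Cre and Vec were compared at each time by size alone, since a genotype has 1 library per time. A gene was counted where log2(RPKM + 1) differed by at least 1 and at least 1 of the 2 libraries reached an RPKM of 1, and ratios carry 95% exact conditional binomial (Clopper-Pearson) intervals that cover counting error only. At D0, 0 of 40 genes were counted in either direction (0.158% of all genes were higher in Cre and 0.275% lower). Cre still had the higher value for 37 of 40, against 52.0% of all genes tested. The median ratio of Cre to Vec was 1.18, against 1.00 over all genes, and Rsad2 and Mx1 had the highest ratios, 1.78 (1.58 to 2.00) and 1.78 (1.31 to 2.45).

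At 4h, Cre had the higher value for 39 of the 40 genes, as it did for 65.4% of all genes tested, and 5 genes were counted as higher and 0 as lower (1.65% and 2.59% of all genes). These were Rsad2 with a ratio of 2.90 (2.48 to 3.41), Cmpk2 with 2.63 (2.13 to 3.26), Oasl1 with 2.48 (1.93 to 3.21), Ifit2 with 2.14 (1.92 to 2.40) and Ifit1 with 2.11 (2.02 to 2.21). All 5 are antiviral effectors. The median ratio was 1.47, against 1.09 over all genes. Scaling by TMM, which removes a shift of 0.12 on the log2 scale between the Cre and Vec libraries of that time, gave a median of 1.35 with 38 of 40 genes above 1, and 3 genes counted. With log2(RPKM + 5) 1 gene was counted.

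On day 2 the separation was widest. Cre had the higher value for 39 of 40 genes, against 45.7% of all genes tested. Of the 38 that reached an RPKM of 1, 18 were counted as higher and 0 as lower, where 2.55% of all genes were higher and 1.54% lower. The highest ratios among these 38 were those of Oas2 at 7.00 (4.94 to 10.2), Xaf1 at 6.34 (4.42 to 9.36), Mx2 at 5.30 (3.58 to 8.07), Rtp4 at 5.29 (4.32 to 6.53) and Ifi44 at 5.20 (3.51 to 7.92). Oasl2, Gbp3, Irf7, Gbp2 and Ifit3 followed at 4.89, 4.75, 4.62, 4.29 and 4.00. Of the transcription factors Irf7, Irf9 (2.56, 2.28 to 2.89) and Stat2 (2.14, 1.99 to 2.29) were counted and Irf1 (1.36, 1.22 to 1.53) was not. The others counted were Ifit1 (3.17), Ddx58 (3.14), Isg15 (3.00), Usp18 (2.82), Dhx58 (2.64) and Bst2 (2.45). None of the antigen-processing or ADP-ribosylation genes was counted, with ratios of 1.64 for Tap1 to 2.79 for Psmb8, where the rule asks for a ratio above 2, and for more at a low RPKM, and Isg20 was the 1 gene lower in Cre (0.888, 0.534 to 1.47). Mx1 and Zbp1 were under the RPKM limit in both libraries, with 2 and 26 reads and with 9 and 35 reads in Vec and Cre.

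The median ratio at D2 was 2.51 over the 38 genes and 0.965 over all genes, and TMM scaling gave 2.67 over the 40 with the same count of 39 above 1. With log2(RPKM + 5), 6 genes were counted. Put against their own D0, the median gene was down 8.30-fold in Vec and 3.8-fold in Cre, and 38 of 40 genes had the smaller drop or a rise in Cre. Other genes separated the same 2 libraries. The 8 preadipocyte and stromal markers summed to 623 RPKM in Vec D2 and 1339 in Cre D2, after 2741 and 2879 at D0, a sum that Col1a1 (244 and 662) and Col1a2 (196 and 454) carried. Ebf2 (19.2 and 12.8) and Cd34 (33.0 and 26) were higher in Vec D2 instead. The 6 adipocyte markers summed to 1581 and 1464, mostly Fabp4 (1159 and 990), with Adipoq at 59.7 and 144 and Cidec at 78.7 and 40.6. The part of the cells' stage of differentiation in the difference was not tested.

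By day 7 the separation was no longer seen. Cre had the higher value for 18 of 40 genes, against 54.2% of all genes tested. By size 0 genes were counted in either direction (1.39% of all genes were higher in Cre and 3.12% lower), and the median ratio was 0.966. TMM scaling gave 16 of 40 and a median of 0.935. The lowest ratios were those of Irf7 at 0.522 (0.496 to 0.549), Psmb9 at 0.616 (0.534 to 0.710), Rtp4 at 0.666 (0.629 to 0.706) and Zbp1 at 0.673 (0.605 to 0.749), and the highest that of Ifit2 at 1.36 (1.25 to 1.48). From D2 to D7 the median gene went up 13.7-fold in Vec and 4.57-fold in Cre, and 39 of 40 genes had the larger ratio in Vec. The adipocyte markers were lower in Cre than in Vec at this time (1419 against 4021 RPKM) and the stromal markers higher (2889 against 1529 RPKM), and their part in these values was not tested.

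**Figure D4:**
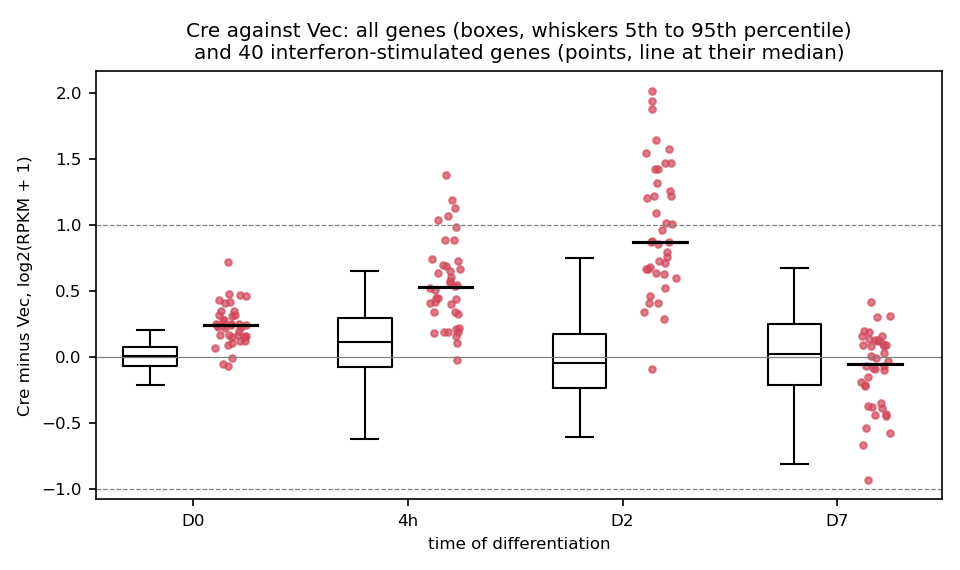
Difference of Cre from Vec in log2(RPKM + 1) at each time for all genes whose RPKM reached 1 in either library (boxes with the median and quartiles, whiskers from the 5th to the 95th percentile) and for the 40 genes (points, with a line at their median; at D2 the 2 genes under an RPKM of 1 are included). Dashed lines mark a difference of 1, which 5 points pass at 4h and 18 at D2, with 0 on days 0 and 7.

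Over all 4 times the genotype term of the model passed for 0 of the 40 genes, as for 0% of the 12581 genes tested, in edgeR's quasi-likelihood test. The count was also 0 with limma, with DESeq2 and without any single library. At an unadjusted p under 0.05 it was 6 of the 40, all higher in Cre, against 808 of all 12581 genes higher and 693 lower. The fitted difference of Cre from Vec was above 0 for 39 genes, with a median of 0.45 on the log2 scale, and reached from -0.01 ± 0.13 (Isg20) to 0.89 ± 0.28 (Rsad2, adjusted p = 0.41). A difference between genotypes that changes over time, as the values above do, counts as error in this term. The deleted gene Nr3c1 itself did not pass it in edgeR's quasi-likelihood test (log2 difference -1.96, adjusted p = 0.341). A count of 0 in this term therefore does not show that a difference is absent.

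The ligands, receptors and signal carriers of the pathway had smaller changes at D2 than its target genes by their median. Of 24 such genes 18 were in the model, and at D2 1 was higher (Ifngr1) and 5 were lower, with a median of -0.25, where 17.7% of all genes were higher and 21.0% lower. Ifnb1 had at most 3 reads and an RPKM of at most 0.162 in any library, Ifna4 at most 0.253 RPKM, and Ifnl3 and Ifng had 0 reads in all 8, which allows up to 3 reads. The receptor chain gene Ifnar1 lay between 9.82 and 20.0 RPKM and had a fitted D2 change of -0.18 (adjusted p = 0.451). Irf5 fell by 1.92 (adjusted p = 0.00347). Between Cre and Vec at D2, 17 genes of this list reached the RPKM limit. By size 1 was higher in Cre, the feedback inhibitor Socs1 (1.65 RPKM in Vec and 6.43 in Cre). The 1 lower in Cre was Ifngr1 (54.4 RPKM in Vec and 21.8 in Cre). Over all genes 2.55% were higher and 1.54% lower. From D2 to D7 4 of the 18 rose and 0 fell, against 15.4% and 8.93% of all genes.

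Of 22 genes of nucleic acid sensing upstream of interferon 20 were in the model, and at D2 2 were higher and 8 lower, against the same shares of 17.7% and 21.0%. In edgeR's quasi-likelihood test the 2 higher were Rnf125, by 3.08 (adjusted p = 0.00774), and Rnaseh2c, by 0.71 (adjusted p = 0.0373). Tlr3, the endosomal receptor of double-stranded RNA, fell by 3.17 (adjusted p = 0.0019), and Sting1, the adaptor of the DNA sensor cGAS, by 3.03 (adjusted p = 0.00327). Adar, which edits and so hides the cell's own double-stranded RNA, fell by 1.74 (adjusted p = 0.00519), whereas Cgas was at -0.02 and Tbk1 at -0.21 (adjusted p = 0.915 and 0.228). From D2 to D7, 11 of the 20 rose and 0 fell (15.4% and 8.93% of all genes), Tlr3 by 3.47.

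A further list of 57 interferon-stimulated genes, of which 54 were in the model, followed the course of the 40. At D2 38 of 54 were lower and 0 higher (21.0% and 17.7% of all genes), with a median of -1.45. From D2 to D7 46 rose and 0 fell (15.4% and 8.93% of all genes). Apol9b fell at D2 by 4.34 (adjusted p = 0.00246) and Irgm1 by 3.45 (adjusted p = 0.00356). The MHC class I genes H2-K1 and H2-D1 had D2 changes of 0.26 and 0.42 (adjusted p = 0.523 and 0.25) and rose from D2 to D7 by 3.30 and 2.45. Between Cre and Vec at D2, 11 of the 46 genes of this list that reached the RPKM limit were counted as higher in Cre. Ifi204, at 5.03 against 18.9 RPKM, was the 1 counted as lower. Over all genes 2.55% were higher and 1.54% lower. The ISRE core was in the promoter window of 23 of the 45 genes of this list found in the promoter table (51.1%). Among the 40, the 12 genes with the core had a median D2 change of -2.18 (range -3.75 to -1.32) and the 18 with a window but no core one of -2.23 (range -3.62 to -0.17), so the depth of the fall did not separate the windows with the core from those without by value.

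**Figure D5:**
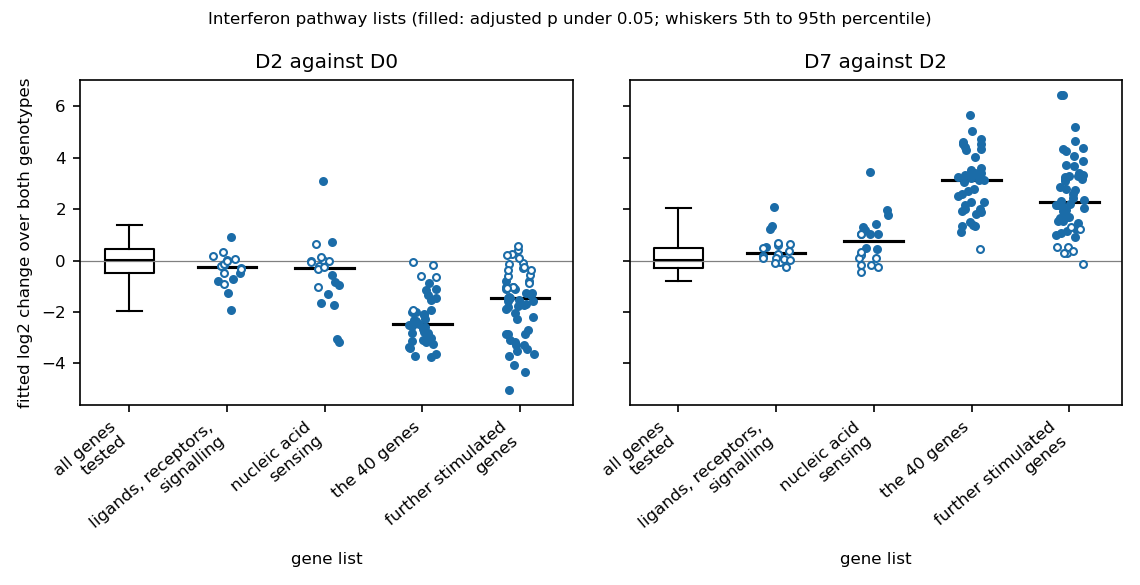
Fitted log2 change over both genotypes at D2 against D0 (left) and at D7 against D2 (right) for all genes tested (box with median and quartiles, whiskers from the 5th to the 95th percentile) and for the genes of 4 lists (points, filled where the adjusted p was under 0.05, with a line at the list's median). The 40 genes lie between -3.75 and -0.05 on the left and between 0.46 and 5.66 on the right, while the median of the ligand, receptor and signalling genes is -0.25 on the left.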

How the data were processed

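RNA was sequenced in 8 libraries, Vec and Cre at 4 times, with 1 library per group, so no replicate spread exists within a group. The 22 ChIP samples were not analysed here. The authors deposited for each library a table of read counts and RPKM values per RefSeq accession, per the file headers. The submitters' processing notes name CASAVA 1.8.2, SICER and mm9, and the aligner and counter of the RNA reads were not given in the sources used here. Of 29082 accessions 28436 (97.8%) matched a symbol in a RefSeq table of GRCm38.p6, used for names and neighbours, and the accession with the most reads stood for a gene.

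RPKM values were used as deposited for levels, and read counts for intervals and for the model of time and genotype, without interaction (edgeR 4.0.16 quasi-likelihood, TMM, R 4.3.3), fitted to 12581 genes and adjusted by Benjamini-Hochberg at 0.05. It has 3 residual degrees of freedom, and its biological coefficient of variation was 0.176. The fit was also run on simulated counts with the same coefficient of variation for all genes and no genotype effect. Those counts hold no departure from parallel courses, so they say nothing about the p-values given here. Intervals and the floor of 3 reads cover counting error only, and limma 3.58.1 and DESeq2 1.42.0 served as alternatives. Values in every library were given for the 2 most abundant genes of each role and for all genes past a threshold or a rule of size. The 40 genes, the lists and the tests were chosen with earlier results of these data known. Close copies (Ifit1 to Ifit3, Mx1 and Mx2, Oasl1 and Oasl2, Gbp2 and Gbp3) may share reads. Promoter sequences are from RefSeq (GRCm38.p6). Ddx60 and Cd68 were listed and not analysed here. Values of 2 listed genes are not reported here.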

Additional observations from a re-analysis of the deposited data

Results flagged for a closer look

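For 3 genes Vec and Cre moved in opposite directions over the same interval, with counting intervals of both ratios clear of 1 before and after TMM scaling. The differences themselves were not tested, since each value rests on 1 library. From D0 to 4h, Ifit2 went to 0.583 of its D0 level in Vec (0.529 to 0.641) and to 1.12 in Cre (1.03 to 1.22), so the Cre ratio was 1.92 times the Vec ratio. From D0 to D2, Ifi27 went to 0.723 in Vec (0.686 to 0.762) and 1.27 in Cre (1.21 to 1.33), a quotient of 1.75. Over the same interval Lgals3bp went to 0.744 in Vec (0.719 to 0.769) and 1.05 in Cre (1.02 to 1.08), a quotient of 1.41. From D2 to D7, Ifi27 went to 1.94 of its D2 level in Vec (1.83 to 2.04) and to 0.841 in Cre (0.803 to 0.881), a quotient of 0.435. The intervals of Ifi27 share its D2 libraries.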

How the results depend on the processing

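No paired analysis was possible because each RNA group holds 1 library, so no replicate numbers could be paired. The model itself compares times within each genotype. The number of genes lower at D2 than at D0 was 33 to 36 under the alternative tools, scalings and filters, and 15 to 37 with 1 library left out, the lowest being without Vec D0. The number higher at D7 than at D2 was 38 or 39, and 28 to 39 with 1 library left out. For 4h against D0, the number higher was 5 with limma on log2(RPKM + 5), 7 with DESeq2 and 0 to 10 with 1 library left out, and the number lower 0 to 2 with 1 library left out. For D7 against D0 the number higher was 10 with DESeq2 and 0 to 9 with 1 library left out. By size, 1 gene was higher in Cre at 4h with log2(RPKM + 5) and 3 after division by TMM factors, and 6 were higher at D2 with log2(RPKM + 5). No gene past a threshold changed direction in any of these fits. Besides Irf1, the D2 falls of Oasl1, Mx1 and Zbp1 and the D7 rise of Oasl1 had adjusted p = 0.114, 0.0502, 0.0626 and 0.0523 in limma with log2(RPKM + 5). Fits without 1 library have the lone sample of that time vary like the others. Few reads limit Mx1 and Zbp1 at D2, and depth limits Cre 4h, the shallowest library.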
